A study of Mus musculus with 18 samples.

Results

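Glucose transporter 1 and 9 glycolytic enzymes were followed in RNA-Seq of BM-derived macrophages: Slc2a1, Hk2, Hk3, Pfkl, Pfkp, Aldoa, Gapdh, Pgk1, Pkm and Ldha. These 10 genes were taken by symbol from the 31053 genes of the deposited table, in which 11 entries carried one of the symbols because Aldoa stood there under 2 identifiers. The table held 18 libraries from 6 mice of 12 weeks on the C57Bl/6J background, 3 wild type and 3 with Slc7a7 deleted by LysM-Cre, which is active in myeloid cells. Marrow cells of each mouse were differentiated for 7 days, seeded at 100000 cells and kept for 24 h with PBS vehicle (control medium), 50 μg/mL Ac-LDL (acetylated LDL) or 100 μg/mL Ox-LDL (oxidized LDL), which gave 6 groups of 3 mice. The dose of Ox-LDL was thus not that of Ac-LDL, so that any difference between the lipoproteins cannot be told apart from a difference of dose. Slc7a7 encodes a light chain of the y+L amino acid transporter, and both modified forms of LDL are taken up by scavenger receptors of macrophages.

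Glycolysis splits glucose into pyruvate in the cytosol. Glucose enters through facilitative transporters, hexokinases trap it as glucose 6-phosphate, phosphofructokinase commits it to the pathway, aldolase cleaves the sugar, and GAPDH, phosphoglycerate kinase and pyruvate kinase carry out the energy-yielding steps, after which lactate dehydrogenase turns pyruvate into lactate and restores NAD+. In macrophages many of these genes are targets of hypoxia-inducible factor 1, and inflammatory activation is known to raise glucose uptake and lactate output.

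Summed over all genes, the libraries held 1043492 to 1768816 estimated counts (median 1466145). Slc7a7 stood at 11.1, 12.6 and 21.1 CPM in control medium, 28.5, 23.6 and 23.8 after Ac-LDL, and 28.7, 25.9 and 29.3 after Ox-LDL in wild type mice 1, 2 and 3, where CPM are counts relative to the TMM-scaled library size. In knockout mice 1, 2 and 3 it stood at 10.3, 4.33 and 5.16 CPM in control medium, 2.36, 2.22 and 5.22 after Ac-LDL, and 10.1, 10.9 and 8.67 after Ox-LDL. Every knockout library was below every wild type library of the same medium, and the log2 fold change averaged over the media was -1.85 (SE 0.19, adjusted p = 9.97e-06). Which exons the deletion removes was not given in the sources used here. The 6 macrophage markers (Adgre1, Csf1r, Cd68, Itgam, Fcgr1 and Mertk) summed to 3321 to 6560.4 CPM, and the 6 neutrophil markers to 24.4 to 249 CPM with Ly6g at 0 in all 18 libraries. Fewer cells of a type and less RNA per cell cannot be told apart in such bulk samples.

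One mouse stood apart for these genes. In wild type mouse 1, 7 of the 10 genes were at their highest among the wild type mice in all 3 media, against 12.1% of the 12290 genes tested and 16.2% of the 6754 genes with a mean of at least 20 CPM. Gapdh in this mouse was 1.56, 1.59 and 1.72 times the mean of the other wild type mice in the control, Ac-LDL and Ox-LDL media. In the same 3 libraries the macrophage markers summed to 4084, 4082 and 3321 CPM, the lowest of the wild type mice in each medium, and the neutrophil markers to 125, 216 and 249 CPM, the highest. These libraries also held the fewest counts of the wild type mice in each medium, at 1067282, 1043492 and 1131744. The other wild type libraries held 1312968 to 1603061. The part of depth or of either marker list in the level of these genes was not tested, and calls that rest on this mouse are given with and without it.

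Per kilobase of transcript the mean levels over 18 libraries fell into an upper and a lower tier. Pkm stood at 645, Aldoa at 472, Gapdh at 281, Ldha at 204, and Pgk1 at 163 CPM per kb. Hk3 stood at 49.8, Pfkp at 26.7, Slc2a1 at 14.9, Hk2 at 10.3, and Pfkl at 8.18 CPM per kb. The enzymes from aldolase onwards formed the upper tier, and the transporter, both hexokinases and both phosphofructokinases the lower. Within a library this order was kept in 18 of 18 libraries down to Slc2a1, which was above Hk2 in 15 of 18, and Hk2 was above Pfkl in 14 of 18. The ranges over all libraries did not overlap between Pgk1 and Hk3 (122 to 236 against 35.3 to 66.5 CPM per kb) nor between Hk3 and Pfkp (35.3 to 66.5 against 16.7 to 33.3), whereas every other pair of neighbours overlapped. Together the 10 genes made up 2994 to 4716 CPM, of which Pkm alone accounted for 41.9%.

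The promoters of 4 members are shown because Hk3 passed the test with Ox-LDL, because Slc2a1 encodes the transporter, with values above control with Ox-LDL in every mouse as were those of Hk3 and Pfkp, and because Pgk1 and Ldha varied most alike over the libraries. All sequences are RefSeq's, build GRCm38.p6, 250 bases before to 50 after the start, read 5′ to 3′ on the strand of the gene, and their positions are chr4:119108495-119108794 (plus strand) for Slc2a1, chr13:55021336-55021635 (minus strand) for Hk3, chrX:106186850-106187149 (plus strand) for Pgk1 and chr7:46845554-46845853 (plus strand) for the first of 2 Ldha starts. Capitals mark the core of the hypoxia response element, ACGTG or GCGTG, on either strand.
Slc2a1: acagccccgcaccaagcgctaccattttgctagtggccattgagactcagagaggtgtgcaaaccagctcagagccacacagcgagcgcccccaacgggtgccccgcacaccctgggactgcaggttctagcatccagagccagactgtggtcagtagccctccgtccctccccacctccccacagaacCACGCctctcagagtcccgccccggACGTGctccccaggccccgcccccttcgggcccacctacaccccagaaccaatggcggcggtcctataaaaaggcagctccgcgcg
Hk3: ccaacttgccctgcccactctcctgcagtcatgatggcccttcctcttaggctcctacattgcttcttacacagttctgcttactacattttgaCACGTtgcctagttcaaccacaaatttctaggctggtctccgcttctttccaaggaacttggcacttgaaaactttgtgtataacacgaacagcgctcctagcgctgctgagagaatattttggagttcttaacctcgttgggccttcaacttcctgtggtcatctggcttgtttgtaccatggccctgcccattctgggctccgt
Pgk1: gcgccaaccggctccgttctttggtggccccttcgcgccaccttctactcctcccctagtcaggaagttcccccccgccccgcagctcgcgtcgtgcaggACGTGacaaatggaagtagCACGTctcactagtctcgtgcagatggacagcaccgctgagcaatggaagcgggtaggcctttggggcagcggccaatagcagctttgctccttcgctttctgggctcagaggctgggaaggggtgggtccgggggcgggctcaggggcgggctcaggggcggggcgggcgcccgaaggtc
Ldha: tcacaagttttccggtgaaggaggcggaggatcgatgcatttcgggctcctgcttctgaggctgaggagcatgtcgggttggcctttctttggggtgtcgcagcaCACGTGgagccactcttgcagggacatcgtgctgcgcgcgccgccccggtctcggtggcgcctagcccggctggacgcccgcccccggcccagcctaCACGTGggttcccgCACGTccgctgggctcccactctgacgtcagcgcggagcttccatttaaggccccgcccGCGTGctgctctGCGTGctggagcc

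The core was found in 12 of the 14 promoters of the 10 genes, with at least 1 promoter of each gene, against 43.77% of 32851 mouse promoters of the same length. The Ldha promoter above held 7 matches, in which CACGTG counts on both strands, Pfkp held 4 and Gapdh 3, and 8.931% of all promoters held at least 3. Hk3 had the lowest share of G or C, at 49.0%, against 52.67% to 67.3% in the promoters of the other members. The median over all promoters was 52.67%. The hypoxia core itself holds a CG, and the part of base content in the number of matches was not tested. The Hk3 and Gapdh promoters had no GGGCGG, the core of the GC box, on either strand, which 35.66% of all promoters hold. It was also absent from the first Aldoa promoter and the second promoters of Pkm and Ldha. Hk3 held GAGGAA, the core bound by the myeloid factor PU.1, which 28.28% of all promoters hold. So did the first Aldoa promoter, which held no hypoxia core. A match describes the letters of a window and shows no binding.

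Of the 10 genes, 1 passed the test in any of 14 comparisons: Hk3, which rose with Ox-LDL when the response was averaged over the genotypes. A gene passed where its p from edgeR's quasi-likelihood test, adjusted after Benjamini and Hochberg across 12290 genes, was under 0.05, and in that comparison 5.39% of all genes passed. This fit had no term for the mouse, although the same mice recur in each medium. With the mouse as a fixed block, 3 of 10 passed for Ac-LDL averaged over the genotypes. Hk3 or Pkm then also passed in comparisons within a genotype, as given below. In the comparison of Ac-LDL with control averaged over the genotypes, 0 of 10 passed and 1 had an unadjusted p under 0.05, against 2% of all genes passing. In wild type macrophages 0 of 10 passed with Ac-LDL (0 at an unadjusted p under 0.05, 0.472% of all genes passing) and 0 of 10 with Ox-LDL (1 unadjusted, 1.34%). In knockout macrophages 0 of 10 passed with Ac-LDL (0 unadjusted, 0.521%) and 0 of 10 with Ox-LDL (2 unadjusted, 2.32%). Between Ox-LDL and Ac-LDL, 0 of 10 passed in wild type (2 unadjusted, 0.00814%) and 0 of 10 in knockout cells (2 unadjusted, 0.0651%). DESeq2 also called none of the 10 in these 7 comparisons with 0 calls.

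The median log2 fold change of the 10 genes was -0.18 for Ac-LDL against control averaged over the genotypes, with 7 of 10 values below 0, and 0.07 for Ox-LDL against control. Over all genes tested the medians were -0.01 and 0.01. For Ox-LDL against Ac-LDL the median of the 10 was 0.23 in wild type and 0.13 in knockout cells, with 9 of 10 and 10 of 10 values above 0, beside medians of 0.01 and 0.00 over all genes. The comparisons with Ox-LDL and with Ac-LDL share their control libraries, and those between the lipoproteins share the libraries of both.

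**Figure D1:**
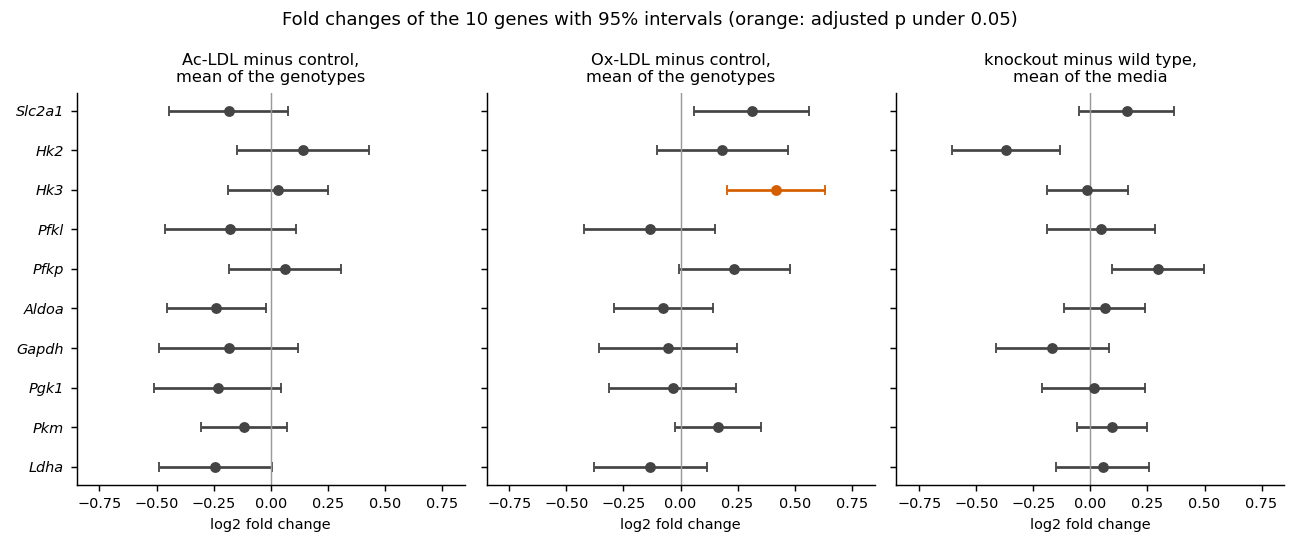
Log2 fold changes of the 10 genes (points) with 95% confidence intervals (bars) from edgeR's fit of all 18 libraries, for Ac-LDL against control, Ox-LDL against control and knockout against wild type. Hk3 with Ox-LDL, at 0.42, is the value whose adjusted p was under 0.05 (orange).

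Slc2a1 encodes GLUT1, the facilitative transporter that brings glucose into most cells at rest. In wild type mice 1, 2 and 3 it stood at 47.3, 45.4 and 43.7 CPM in control medium, 38.9, 47.3 and 29.9 after Ac-LDL, and 56.4, 49.998 and 53.5 after Ox-LDL. Knockout mice had values of 48.2, 52.0 and 42.5 CPM in control medium, 37.0, 51.6 and 40.6 after Ac-LDL, and 61.5, 69.8 and 57.2 after Ox-LDL. Within each genotype the 3 libraries with Ox-LDL lay above all 6 others. With Ox-LDL the knockout libraries lay above the wild type ones, the nearest at 57.2 against 56.4 CPM. This difference did not pass edgeR's test (0.24, SE 0.17, adjusted p = 0.933). Set against control, Ox-LDL gave a log2 fold change of 0.31 (SE 0.12, adjusted p = 0.163) averaged over the genotypes, which did not pass the test, and Slc2a1 was higher with Ox-LDL in 6 of 6 mice, by 0.14 to 0.42 on the log2 scale. Ox-LDL against Ac-LDL gave 0.46 (SE 0.18, adjusted p = 0.896) in wild type and 0.53 (SE 0.17, adjusted p = 0.641) in knockout cells. Its counts were 41 to 102 per library. The macrophage markers summed to less with Ox-LDL than in control medium in all 6 mice, and their part in the values of Slc2a1 was not tested.

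In control medium the mRNA of Slc2a1 was not the most abundant per kb of the 4 glucose transporter genes that were listed, which are part of the family. There Slc2a6, which encodes the lysosomal transporter GLUT6, made up 56.0% ± 10.96 (SD, n = 3) of their summed level per kb in wild type and 55.8% ± 1.98 in knockout cells. With Ox-LDL its share was 26.8% ± 2.31 and 25.6% ± 4.54. The share of Slc2a1 was 28.2% ± 7.04 in control medium and 47.0% ± 4.95 with Ox-LDL in wild type cells, and 27.0% ± 2.31 and 51.8% ± 3.72 in knockout cells. Slc2a1 thus held the largest share with Ox-LDL in both genotypes, and Slc2a6 fell with Ox-LDL by 1.65 on the log2 scale (SE 0.16, adjusted p = 9.91e-08).

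**Figure D2:**
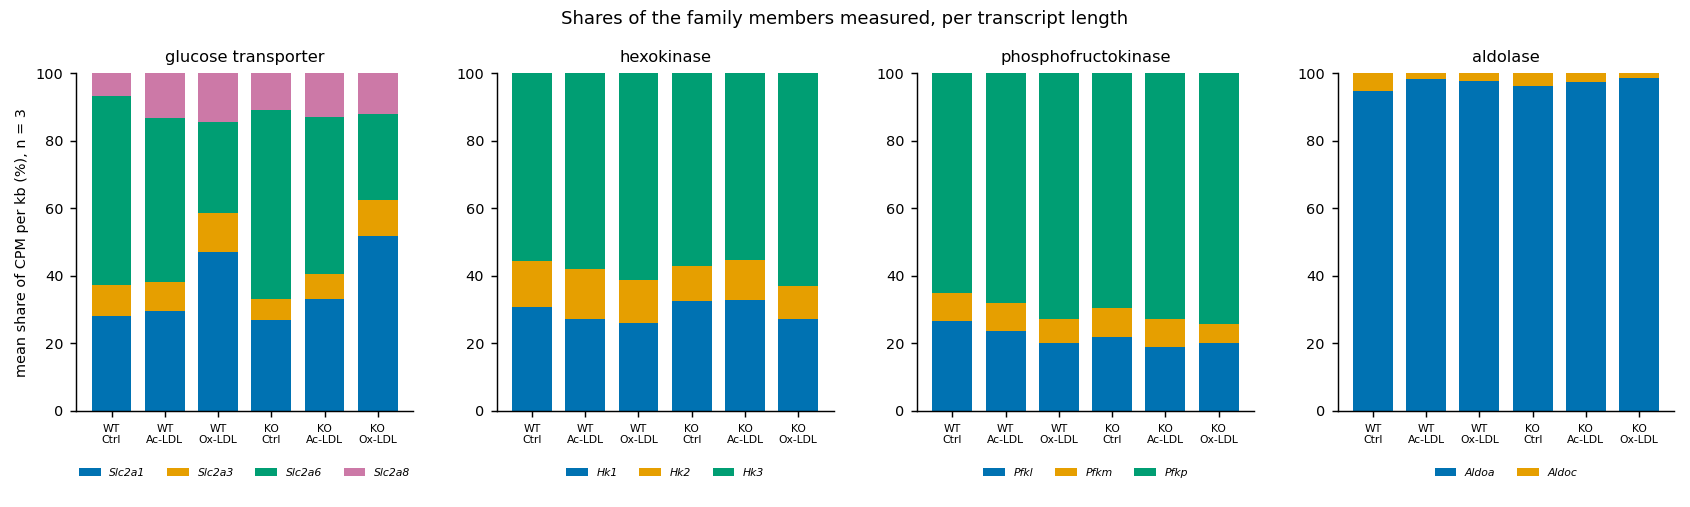
Share of the summed mRNA level per kb of the followed genes of each family (percent, mean of 3 mice) taken by each gene in the 6 groups of genotype and medium. Slc2a6 goes from 56.0% to 26.8% of the followed glucose transporter genes between control medium and Ox-LDL in wild type cells while Slc2a1 goes from 28.2% to 47.0%. The share of a gene also changes with the levels of the others.

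Hk3, a hexokinase of myeloid cells that, unlike Hk2, does not bind mitochondria, rose with Ox-LDL by 1.34-fold averaged over the genotypes (log2 0.42, SE 0.10, 95% interval 0.20 to 0.63, adjusted p = 0.0155). In wild type mice 1, 2 and 3 it stood at 152, 144 and 127 CPM in control medium, 185, 163 and 114 after Ac-LDL, and 214, 194 and 155 after Ox-LDL. In knockout mice 1, 2 and 3 it stood at 149, 139.9 and 146 CPM in control medium, 140.3, 134 and 144 after Ac-LDL, and 201, 194 and 188 after Ox-LDL. With Ox-LDL all 3 libraries of a genotype lay above its 3 control libraries, and Hk3 was higher in 6 of 6 mice, by 0.29 to 0.49 on the log2 scale. The group means in wild type cells were 141 ± 12.9 CPM in control medium and 188 ± 29.9 CPM with Ox-LDL (SD, n = 3 mice), and 145 ± 4.57 CPM and 194 ± 6.42 CPM in knockout cells.

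Taken by genotype, the Hk3 response was 0.41 (SE 0.15, adjusted p = 0.269) in wild type and 0.42 (SE 0.15, adjusted p = 0.161) in knockout cells, neither of which passed. With the mouse as a block with fixed effects, which compares the media within each mouse, both passed, at 0.40 (adjusted p = 0.0126) and 0.42 (adjusted p = 0.00389), where 4.39% and 7.18% of all genes passed. With the mouse as a random effect in limma-voom (correlation estimated at 0.1755) neither passed, at 0.40 (adjusted p = 0.115) and 0.42 (adjusted p = 0.0530), whereas the averaged response did (0.41, adjusted p = 0.00316). The response in knockout minus that in wild type cells was 0.01 (SE 0.21, not past the threshold), with a 95% interval of -0.42 to 0.44. Without wild type mouse 1 the averaged response was 0.40 (adjusted p = 0.00811) and the response in knockout cells passed at 0.44 (adjusted p = 0.0340), while that in wild type cells did not pass, also with the fixed block (0.37, adjusted p = 0.0864). Between Ox-LDL and Ac-LDL Hk3 differed by 0.48 (SE 0.15, adjusted p = 0.629) in knockout cells, which passed with the fixed block (0.48, adjusted p = 0.00651, 1.38% of all genes) but not with the random effect (adjusted p = 0.179), and Ac-LDL against control gave 0.03 (SE 0.11, adjusted p = 0.949) averaged over the genotypes. Neutrophils also carry Hk3, and the neutrophil markers summed to 72.9 to 125 CPM in control medium and 135 to 249 CPM with Ox-LDL in wild type cells, but to 52.0 to 141 and 61.6 to 112 CPM in knockout cells. The macrophage markers were lower with Ox-LDL than in control medium in all 6 mice, at 4084 to 6510.4 against 3321 to 5295 CPM in wild type cells, which overlap, and at 5514 to 6560.4 against 3893 to 4812 CPM in knockout cells, which do not. The part of either list in the Hk3 result was not tested.

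Hk2, the inducible hexokinase that docks on mitochondria, stood at 67.8, 50.3 and 62.0 CPM in control medium, 66.4, 53.9 and 77.5 after Ac-LDL, and 57.3, 73.5 and 67.2 after Ox-LDL in wild type mice 1, 2 and 3. The knockout values were 51.3, 38.4 and 47.1 CPM in control medium, 68.6, 43.9 and 40.6 after Ac-LDL, and 55.6, 45.2 and 57.8 after Ox-LDL. The groups overlapped between media in both genotypes, with higher values with Ox-LDL than in control medium in 5 of 6 mice. The averaged response to Ox-LDL was 0.18 (SE 0.14, adjusted p = 0.573) and that to Ac-LDL 0.14 (SE 0.14, adjusted p = 0.778). Among the 3 hexokinases tested, Hk3 made up 55.4% to 62.9% of the summed level per kb over the 6 groups, Hk1 26.0% to 32.9% and Hk2 9.96% to 14.7%.

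Phosphofructokinase, the committing and most regulated step, was represented by its platelet and liver forms. Pfkp stood at 99.3, 112 and 69.2 CPM in control medium, 107, 99.7 and 76.2 after Ac-LDL, and 119, 123 and 91.3 after Ox-LDL in wild type mice 1, 2 and 3. Knockout mice had values of 95.3, 117 and 126 CPM in control medium, 121, 131 and 115 after Ac-LDL, and 121, 133 and 138 after Ox-LDL. It was higher with Ox-LDL than in control medium in 6 of 6 mice, by 0.14 to 0.39 on the log2 scale, but the groups overlapped in both genotypes and the averaged response of 0.24 (SE 0.12, adjusted p = 0.320) did not pass. Pfkl stood at 37.1, 27.9 and 35.7 CPM in control medium, 35.1, 30.3 and 23.8 after Ac-LDL, and 27.8, 27.2 and 26.7 after Ox-LDL in wild type mice 1, 2 and 3. The corresponding values in knockout mice were 27.7, 35.3 and 32.9 CPM in control medium, 28.4, 26.1 and 30.7 after Ac-LDL, and 26.1, 33.5 and 37.0 after Ox-LDL. In wild type cells all 3 Pfkl libraries with Ox-LDL were below the control ones, at a log2 fold change of -0.30 (SE 0.20, adjusted p = 0.720), whereas the knockout groups overlapped, at 0.03 (SE 0.19, adjusted p = 0.986). The difference between these responses was 0.32 (SE 0.28, not past the threshold). Pfkp made up 65.0% to 74.3% of the 3 phosphofructokinases per kb over the groups, and Pfkl 18.9% to 26.7%.

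**Figure D3:**
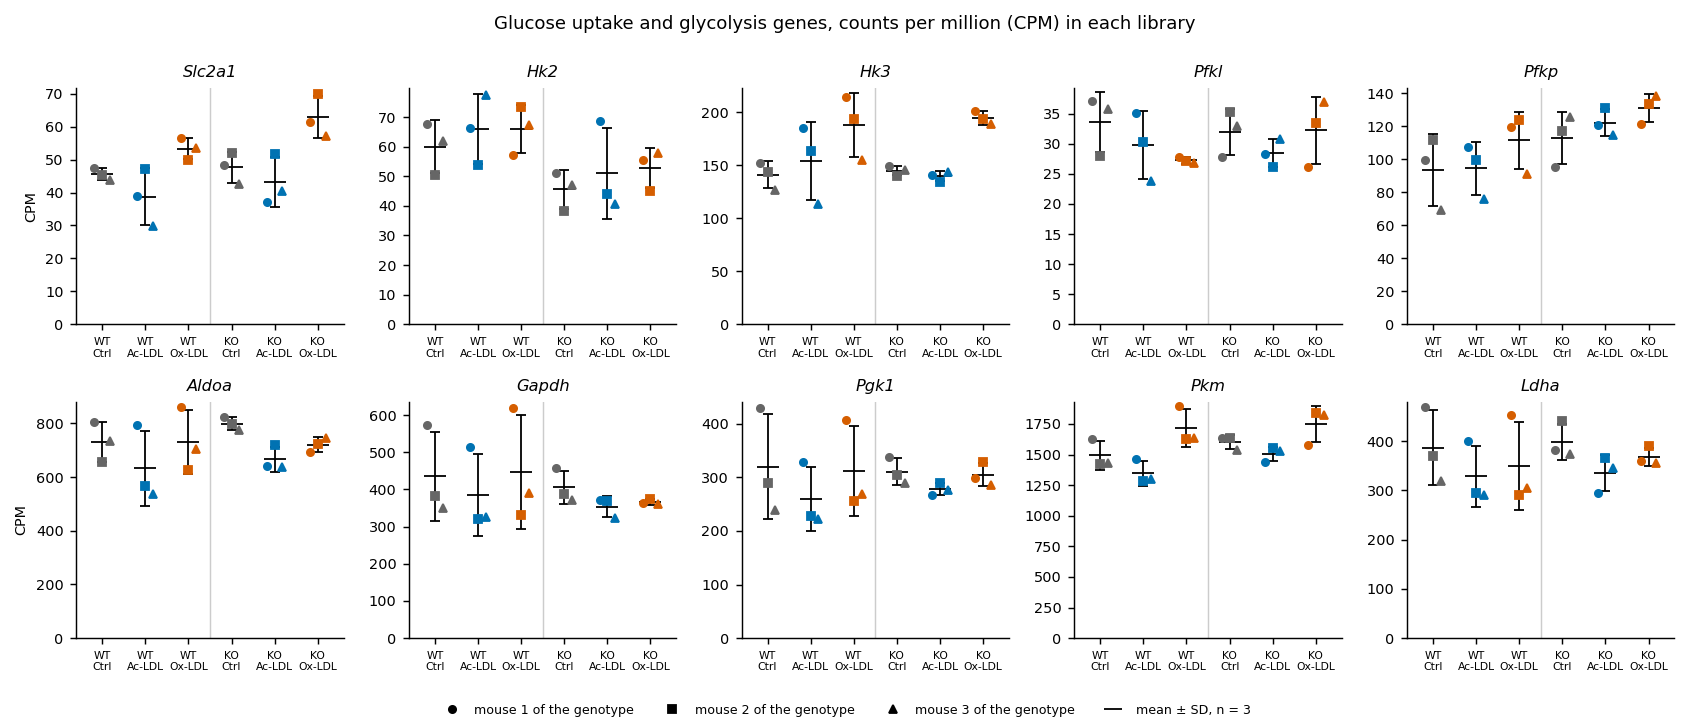
CPM of each of the 10 genes in the 18 libraries, by genotype and medium, with 1 symbol for each mouse of a genotype and bars for mean ± SD (n = 3). Hk3 and Slc2a1 lie above control with Ox-LDL in both genotypes, and wild type mouse 1 (circles) lies above the other wild type mice in Gapdh, Pgk1 and Ldha.

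The 5 enzymes of the upper tier had averaged fold changes with Ac-LDL between -0.24 and -0.12, none past the threshold. Aldoa, which cleaves fructose 1,6-bisphosphate, stood at 804, 656 and 735 CPM in control medium, 792, 567 and 537 after Ac-LDL, and 863, 627 and 703 after Ox-LDL in wild type mice 1, 2 and 3. The corresponding values in knockout mice were 824, 797 and 776 CPM in control medium, 641, 718 and 638 after Ac-LDL, and 692, 725 and 746 after Ox-LDL. All 3 knockout libraries with Ac-LDL, and all 3 with Ox-LDL, were below the knockout control libraries, whereas the wild type groups overlapped. The averaged response to Ac-LDL was -0.24 (SE 0.11, adjusted p = 0.361), which did not pass. It passed with the fixed block (-0.25, adjusted p = 0.0112) and not with the mouse as a random effect (-0.25, adjusted p = 0.0935). Without wild type mouse 1 it passed at -0.29 (adjusted p = 0.0461). The second Aldoa identifier, which lies upstream of the first, held 0 to 3 counts in a library, and adding it left the value at -0.24. Aldoa made up 94.7% to 98.6% of the aldolases per kb over the groups.

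Gapdh, the dehydrogenase that makes NADH and a widely used reference gene, stood at 573, 382 and 351 CPM in control medium, 513, 319.9 and 325 after Ac-LDL, and 619, 330.2 and 391 after Ox-LDL in wild type mice 1, 2 and 3. Knockout mice had values of 456, 389 and 371 CPM in control medium, 371, 369 and 322 after Ac-LDL, and 363, 376 and 360.2 after Ox-LDL. Wild type mouse 1 lay above every other library in each medium, and without it the wild type range over the 3 media was 319.9 to 391 CPM. The averaged responses were -0.18 (SE 0.15, adjusted p = 0.709) to Ac-LDL and -0.06 (SE 0.15, adjusted p = 0.912) to Ox-LDL.

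Pgk1, whose product makes the first ATP of the pathway, stood at 429.9, 290.3 and 239.8 CPM in control medium, 328, 228 and 223 after Ac-LDL, and 408, 257 and 269 after Ox-LDL in wild type mice 1, 2 and 3. In the knockout mice, Pgk1 was at 338, 305 and 289 CPM in control medium, 268, 289 and 276 after Ac-LDL, and 299.7, 329 and 286 after Ox-LDL. Wild type mouse 1 was 1.62, 1.45 and 1.55 times the mean of the other wild type mice in the control, Ac-LDL and Ox-LDL media. The averaged response to Ac-LDL was -0.23 (SE 0.13, adjusted p = 0.551), which passed with the fixed block (-0.22, adjusted p = 0.0382) and not with the random effect (adjusted p = 0.315). Without wild type mouse 1 it was -0.19 (adjusted p = 0.282), and with the fixed block it no longer passed, at -0.19 (adjusted p = 0.145). The groups overlapped in both genotypes. The response to Ox-LDL was -0.03 (SE 0.13, adjusted p = 0.945).

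Pkm, the pyruvate kinase gene that gives the M1 and M2 isoforms, which gene counts do not separate, stood at 1628, 1419 and 1433 CPM in control medium, 1464, 1282 and 1298 after Ac-LDL, and 1899, 1624 and 1633 after Ox-LDL in wild type mice 1, 2 and 3. The knockout values were 1632, 1632 and 1533 CPM in control medium, 1439, 1549 and 1530.2 after Ac-LDL, and 1577, 1841 and 1819 after Ox-LDL. In both genotypes all 3 libraries with Ox-LDL lay above all 3 with Ac-LDL, and the control libraries overlapped with both. Ox-LDL against Ac-LDL gave 0.35 (SE 0.13, adjusted p = 0.834) in wild type cells, which passed with the fixed block (0.35, adjusted p = 0.0273, 0.732% of all genes), and 0.21 (SE 0.13, adjusted p = 0.956) in knockout cells, which did not pass with it (0.21, adjusted p = 0.299). The wild type call was lost with the mouse as a random effect (adjusted p = 0.204) and with the fixed block without wild type mouse 1 (adjusted p = 0.165). Against control the averaged responses were -0.12 (SE 0.09, adjusted p = 0.699) for Ac-LDL and 0.16 (SE 0.09, adjusted p = 0.384) for Ox-LDL.

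Ldha, the muscle-type subunit of lactate dehydrogenase, stood at 469.8, 371 and 320.0 CPM in control medium, 399.5, 295 and 291 after Ac-LDL, and 452, 290.1 and 305 after Ox-LDL in wild type mice 1, 2 and 3. Knockout mice had values of 381, 440.1 and 374 CPM in control medium, 294, 366 and 345 after Ac-LDL, and 360.3, 389 and 355 after Ox-LDL. All 3 knockout libraries with Ac-LDL were below the knockout control libraries, and the other groups overlapped between control medium and either lipoprotein. Ldha was below control in 6 of 6 mice with each lipoprotein. The averaged response to Ac-LDL was -0.24 (SE 0.12, adjusted p = 0.436), which passed with the fixed block (-0.24, adjusted p = 0.0147) and not with the random effect (adjusted p = 0.184). Without wild type mouse 1 it was -0.23 (adjusted p = 0.170), and with the fixed block it passed, at -0.23 (adjusted p = 0.0315). The response to Ox-LDL was -0.13 (SE 0.12, adjusted p = 0.655).

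Within single mice, Aldoa, Gapdh, Pgk1, Pkm and Ldha were all lower with Ac-LDL than in control medium in 6 of 6 mice, and none of the 10 genes was higher in 6 of 6. Of all 12290 genes, 5.9% were lower and 4.67% higher in all 6 mice. The differences of the 5 genes ranged from -0.45 (Aldoa, wild type mouse 3) to -0.0026 (Pkm, knockout mouse 3) on the log2 scale. The sign of the last rests on the TMM scaling. Pkm there held 2378 of 1583935 counts in control medium and 2639 of 1682643 with Ac-LDL. The 5 genes also varied together over the libraries (pairwise r 0.461 to 0.896), so they are not 5 separate observations. The shares of all genes beside them cover genes of every level. For Ac-LDL averaged over the genotypes 3 of the 10 genes, Aldoa, Pgk1 and Ldha, passed with the fixed block, where 5.85% of all genes passed, and 0 with the mouse as a random effect, where 3.51% did. Ox-LDL was above control in 6 of 6 mice for Slc2a1, Hk3 and Pfkp (5.55% of all genes) and below it for Ldha (7.46%). From Ac-LDL to Ox-LDL, 6 of the 10 genes were higher in 6 of 6 mice (3.5%).

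**Figure D4:**
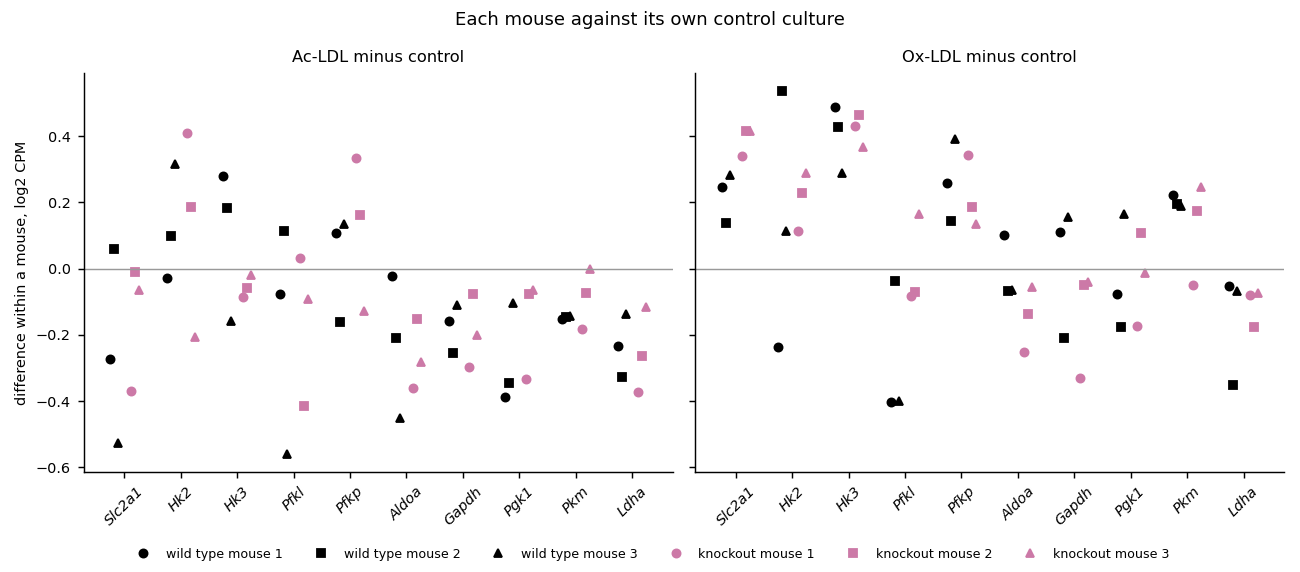
Log2 differences between media within each of the 6 mice for the 10 genes, 1 point for each mouse. For Ac-LDL against control all 6 points lie below 0 in Aldoa, Gapdh, Pgk1, Pkm and Ldha, and for Ox-LDL against control all 6 lie above 0 in Slc2a1, Hk3 and Pfkp.

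Between genotypes 0 of 10 genes passed in any comparison. This held in control medium (0 at an unadjusted p under 0.05, 0.00814% of all genes passing), with Ac-LDL (1 unadjusted, 0.0163%), with Ox-LDL (0 unadjusted, 0.00814%) and averaged over the media (2 unadjusted, 0.057%). The median log2 fold change of the 10, knockout against wild type, was 0.05 averaged over the media, beside -0.0025 over all genes. DESeq2 called 0 of 10 as well. For the difference between the genotypes in their response to Ac-LDL or to Ox-LDL, 0 of 10 passed and 0 had an unadjusted p under 0.05, with 0% of all genes passing in either comparison and 327 and 338 genes at an unadjusted p under 0.05.

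The 2 lowest unadjusted p-values between genotypes belonged to Hk2 and Pfkp, in opposite directions. Hk2 ranged from 50.3 to 77.5 CPM (median 66.4) in the 9 wild type libraries and from 38.4 to 68.6 CPM (median 47.1) in the 9 knockout libraries. Its averaged fold change was -0.37 (SE 0.11, adjusted p = 0.244), with overlap in every medium. Pfkp ranged from 69.2 to 123 CPM (median 99.7) and from 95.3 to 138 CPM (median 121), at 0.30 (SE 0.10, adjusted p = 0.303), and its groups were apart with Ac-LDL. The neutrophil markers were also apart there, at 78.2 to 216 CPM in wild type and 24.4 to 57.5 CPM in knockout cells, and their part in the Pfkp values was not tested. The 95% intervals of the averaged fold change ran from -0.61 to -0.13 for Hk2 and from 0.10 to 0.50 for Pfkp. The fit behind them takes the 9 libraries of a genotype as separate, although they come from 3 mice, so the intervals can be too narrow. With the mouse as a random effect in limma-voom the adjusted p was 0.535 for Hk2 and 0.558 for Pfkp. For the other 8 genes the averaged fold changes lay between -0.17 (Gapdh) and 0.16 (Slc2a1).

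Across the 18 libraries, which share mice and media, the log2 CPM of the 10 genes correlated with a median Pearson's r of 0.351 over 45 pairs. The highest was 0.896, between Pgk1 and Ldha (0.819 without wild type mouse 1), and the lowest -0.445, between Hk2 and Pfkp. In deviations from the group means the highest was 0.955, between Gapdh and Pgk1, and without wild type mouse 1 this r was 0.657 over 15 libraries. The genes outside the list most like Slc2a1, among 6754, were Txnrd1 (r = 0.856) and Srxn1 (r = 0.841), 2 enzymes of the thioredoxin and peroxiredoxin systems, followed by the protease inhibitor gene Serpinb9 (r = 0.790). The genes most like the mean of the 10 were Esd, an esterase (r = 0.888), Eno1, the enolase of the same pathway (r = 0.841), and Ndufs1, a subunit of complex I (r = 0.805).

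The rest of the pathway was followed with a list of 30 further transporters and enzymes, of which 21 could be tested. None of the 21 rose and 2 fell, Slc2a6 and Aldoc, both with Ac-LDL and with Ox-LDL averaged over the genotypes (2% and 5.39% of all genes), and the median log2 fold change was -0.18 with Ac-LDL and -0.04 with Ox-LDL. Slc2a6 stood at 37.1, 79.6 and 71.4 CPM in control medium, 38.9, 46.5 and 38.8 after Ac-LDL, and 18.8, 22.2 and 18.9 after Ox-LDL in wild type mice 1, 2 and 3. The corresponding values in knockout mice were 64.5, 63.8 and 65.1 CPM in control medium, 41.8, 37.2 and 38.8 after Ac-LDL, and 16.8, 19.8 and 24.3 after Ox-LDL. The groups with Ox-LDL lay below all others in both genotypes, and the fold changes were -1.66 (SE 0.22, adjusted p = 6.44e-05) in wild type and -1.64 (SE 0.22, adjusted p = 4.22e-05) in knockout cells, with -0.67 (SE 0.14, adjusted p = 0.00986) for Ac-LDL averaged over the genotypes. Wild type mouse 1, at 37.1 CPM in control medium, was the lowest of the control libraries here.

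Aldoc, the aldolase form best known from brain, stood at 83.6, 55.8 and 89.7 CPM in control medium, 28.5, 14.8 and 21.1 after Ac-LDL, and 46.6, 20.4 and 35.2 after Ox-LDL in wild type mice 1, 2 and 3. Knockout mice had values of 77.8, 48.3 and 48.3 CPM in control medium, 41.8, 28.9 and 27.3 after Ac-LDL, and 21.9, 19.2 and 17.3 after Ox-LDL. Both lipoproteins were below control in every mouse, at averaged fold changes of -1.35 (SE 0.19, adjusted p = 0.000140) for Ac-LDL and -1.39 (SE 0.20, adjusted p = 3.99e-05) for Ox-LDL. Ox-LDL against Ac-LDL gave 0.66 (SE 0.31, adjusted p = 0.965) in wild type and -0.74 (SE 0.30, adjusted p = 0.866) in knockout cells, neither of which passed. Slc16a3, which exports lactate, did not pass with Ac-LDL (-0.55, adjusted p = 0.0889) or Ox-LDL (-0.50, adjusted p = 0.0724).

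In the pentose phosphate pathway, which branches off after the hexokinases, 8 of 8 genes could be tested. With Ac-LDL 0 rose and 1 fell (median log2 fold change -0.08), and with Ox-LDL 1 rose and 1 fell (median 0.06). The gene that fell was Tkt, a transketolase that exchanges carbon with glycolysis, at -0.55 (SE 0.08, adjusted p = 0.000267) with Ac-LDL and -0.39 (SE 0.08, adjusted p = 0.00389) with Ox-LDL. In control medium Tkt stood at 384 to 424 CPM in the 6 libraries, with Ac-LDL at 243 to 317 and with Ox-LDL at 281 to 357 CPM, so that neither range reached the control range. The gene that rose was Taldo1, transaldolase, at 0.34 (SE 0.10, adjusted p = 0.0363), with 655 to 789 CPM in control medium and 767 to 1035 CPM with Ox-LDL. Its call was lost in 9 of 12 fits that left out 1 library, with adjusted p up to 0.105 without knockout control mouse 2, and it was kept only without wild type control mouse 1, wild type Ox-LDL mouse 2 or knockout control mouse 1.

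Of 12 glycogen genes, all tested, 0 passed with Ac-LDL (median 0.03) and 1 rose with Ox-LDL (median 0.10). This was Gbe1, the glycogen branching enzyme, at 0.56 (SE 0.16, adjusted p = 0.0384), with 35.0 to 51.6 CPM in control medium and 57.4 to 75.9 CPM with Ox-LDL. Its call was lost in 9 of 12 fits that left out 1 library, with adjusted p up to 0.119 without knockout Ox-LDL mouse 2, and it was kept only without wild type control mouse 1, wild type Ox-LDL mouse 3 or knockout Ox-LDL mouse 1.

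Hypoxia-inducible factor and its other targets gave 20 tested genes of 21. With Ac-LDL 0 passed (median -0.01), and with Ox-LDL 1 rose and 1 fell (median 0.05). The gene that fell was Hif1a itself, the oxygen-regulated subunit, at -0.43 (SE 0.09, adjusted p = 0.00508). Hif1a stood at 133, 158 and 147 CPM in control medium, 144, 115 and 108 after Ac-LDL, and 97.7, 104 and 124 after Ox-LDL in wild type mice 1, 2 and 3. The corresponding values in knockout mice were 159, 170.2 and 146 CPM in control medium, 115, 129.9 and 129 after Ac-LDL, and 117, 118 and 118 after Ox-LDL. With Ox-LDL each genotype lay below its control libraries. The gene that rose was P4ha2, a collagen prolyl hydroxylase subunit, at 1.46 (SE 0.32, adjusted p = 0.00612) on 3 to 20 counts in a library. Vegfa did not pass with Ox-LDL (0.52, adjusted p = 0.138).

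**Figure D5:**
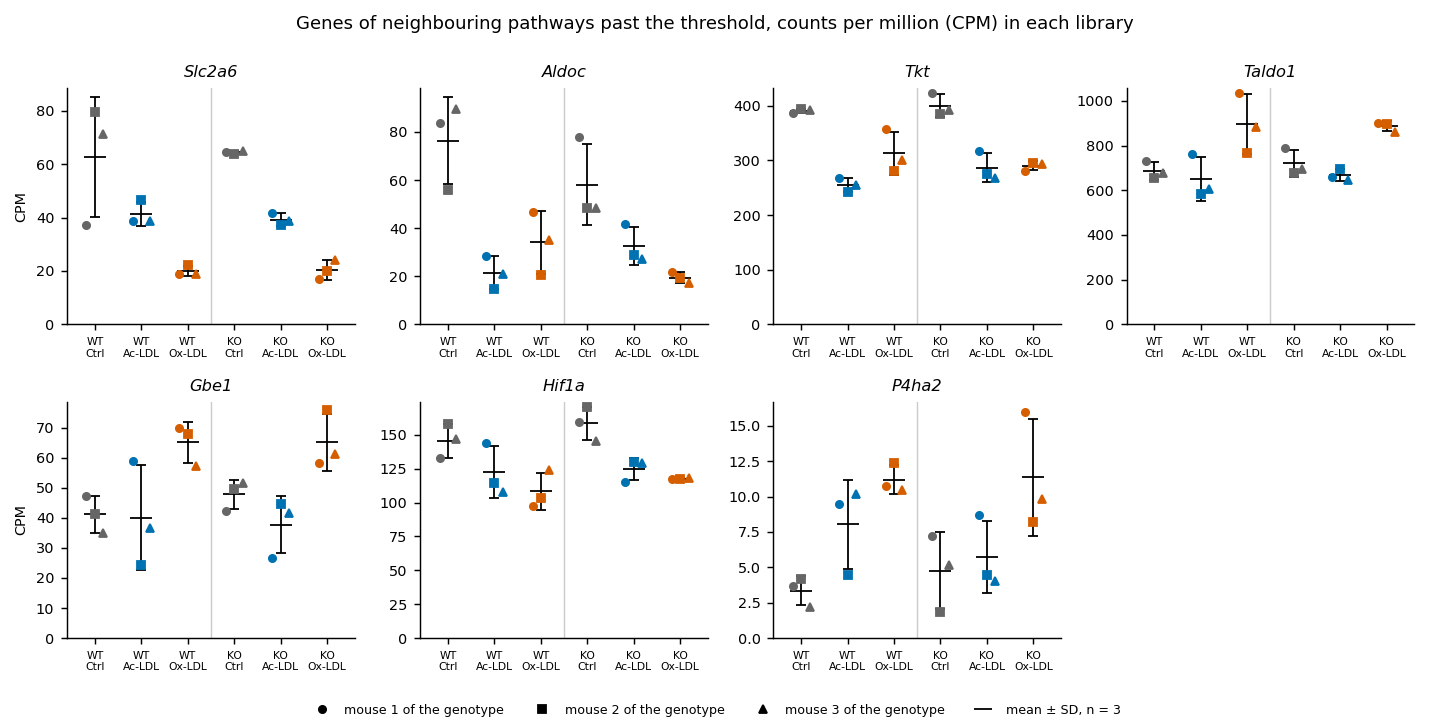
CPM in the 18 libraries of the 7 genes of neighbouring pathways that passed the test averaged over the genotypes, by genotype and medium, with 1 symbol for each mouse and bars for mean ± SD (n = 3). Slc2a6 lies below the other media with Ox-LDL in both genotypes, and Aldoc and Tkt lie below control with both lipoproteins.

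In the 2 remaining lists no gene passed with either lipoprotein averaged over the genotypes. Of 13 tested genes for the entry of pyruvate into mitochondria, 1 had an unadjusted p under 0.05 with Ox-LDL, Pdp2, a phosphatase that activates pyruvate dehydrogenase (-0.45, adjusted p = 0.101 in edgeR's test). Pdp2 was also the 1 such gene with Ac-LDL (-0.53, adjusted p = 0.0917). The median was -0.07 with Ac-LDL and 0.02 with Ox-LDL. Of 9 tested regulators of glucose use, 3 had an unadjusted p under 0.05 with Ox-LDL, led by the transcription factor gene Myc (0.58, adjusted p = 0.0710) and Txnip, an inhibitor of glucose uptake (-0.27, adjusted p = 0.150). With Ac-LDL 2 had such a p, led by Myc (0.63, adjusted p = 0.0880). The medians were -0.03 with Ac-LDL and -0.04 with Ox-LDL. Between genotypes 0 genes of the 6 lists passed averaged over the media, with 0 to 2 genes in a list at an unadjusted p under 0.05.

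Reads of some members could also come from near copies in the genome. Of the 31-base words of the annotated transcripts, 54.7% were shared with other genes for Pgk1, 34.7% for Pkm, 27.2% for Gapdh, 19.6% for Ldha and 16.98% for Aldoa. Genes sharing at least 10% of the words were found for Pgk1, Pkm and Gapdh alone, and most are pseudogenes outside the deposited table. The Gapdh copies within it, Gm3839 and Gm10358, held 62.0 and 11.7 counts over all 18 libraries. Gapdh held 431 to 757 in each library. How far the levels of these 5 genes are affected cannot be read from the shared words. Genes on the opposite strand overlap Slc2a1 (Gm12867, Gm12868), Hk2 (Gm17034), Hk3 (Unc5a), Pfkp (Pitrm1), Aldoa (Fam57b) and Gapdh (Iffo1). The libraries were made with a stranded kit, but the strand setting of the counting was not given in the sources used here.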

How the data were processed

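RNA-Seq of BM-derived macrophages was analysed in 18 libraries, grouped by the genotype and treatment in their labels. The authors prepared libraries with the SMARTer stranded pico kit and ran the nf-core pipeline, which used Trim Galore for trimming, STAR for alignment (mm10) and Salmon with Ensembl transcripts for quantification. The values deposited are Salmon's estimated counts per gene, not normalized, and 0 columns belonged to other samples. Depth was 1043492 to 1768816 estimated counts per library, and replicates of a group differed by more than sampling noise (chi-square per degree of freedom 2.03 to 12.7).

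Counts were rounded, genes were kept by filterByExpr (min.count 2, min.total.count 10; 12290 genes), and 1 model of all 6 groups was fitted in edgeR 4.0.16 (quasi-likelihood, TMM, R 4.3.3), with Benjamini-Hochberg adjustment over all genes at 0.05. The script was tested on simulated data. DESeq2 1.42.0, other scalings and filters, the replicate block, limma-voom (limma 3.58.1), the compared libraries alone and leaving out libraries were the alternatives. The replicate numbers pair the libraries: the labels give the same mouse in each medium, and deviations from the group means correlated in 18 of 18 same-mouse pairs (r 0.112 to 0.564, 6754 genes with a mean of at least 20 CPM). Within-mouse differences used log2 CPM with a prior count of 2. Levels per kb used the principal transcript's length.

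The members and all gene lists were chosen with earlier results of these data known. Named were all members, every gene of the other lists that passed in a comparison described, or else up to 2 with the smallest p for Ox-LDL averaged over the genotypes, and the 3 genes most correlated with Slc2a1 and with the members' mean. Slc16a3 and Vegfa were named after their values were seen. Replicates were separate mice. Figures were drawn with matplotlib 3.10.9.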

Additional observations from a re-analysis of the deposited data

Results flagged for a closer look

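For Aldoc the values with the lipoproteins lay in opposite order in the genotypes, although neither difference passed edgeR's test. The log2 difference, Ox-LDL minus Ac-LDL within a mouse, was above 0 in 3 of 3 wild type mice (0.43 to 0.70, mean 0.61 ± 0.15, SD, n = 3) and below 0 in 3 of 3 knockout mice (-0.89 to -0.56, mean -0.69 ± 0.18). The knockout mean minus the wild type mean was -1.29. Its exact permutation p was 0.1 (two-sided), the smallest that 3 mice against 3 can give. The test was run only because the genotypes lay on opposite sides of 0 in every mouse, which fixes this p. It therefore carries no evidence of its own. Aldoc was chosen for this comparison after its fold changes had been seen, and the cause was not tested.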

How the results depend on the processing

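Over up to 12 alternative settings and leaving out each library in turn, none of the fold changes followed reversed. Those followed had passed or, for the 10 genes, had an unadjusted p under 0.05 in the main fit, so that a reversal was unlikely from the start. The number of the 10 genes that passed moved in 12 of 279 cases. With the mouse as a replicate block of fixed effects, which uses the pairing of the media within a mouse, 3 genes passed for Ac-LDL against control averaged over the genotypes (Aldoa, Pgk1 and Ldha; 0 without the block), 1 for Ox-LDL against control in wild type and 1 in knockout cells (Hk3 in both), 1 for Ox-LDL against Ac-LDL in wild type (Pkm) and 1 in knockout cells (Hk3). As a random effect in limma-voom the block gave 0 in these 5 comparisons. With only the libraries compared in the fit, Hk3 passed in knockout cells, as 1 gene for Ox-LDL against control and 1 for Ox-LDL against Ac-LDL. With wild type mouse 1 left out in every medium, a setting chosen after the data were seen, 1 gene passed for Ox-LDL against control in knockout cells (Hk3) and 1 for Ac-LDL against control averaged over the genotypes (Aldoa). With the fixed block added to it, also chosen after seeing the data, these were 1 (Hk3) and 2 (Aldoa and Ldha), and 1 (Hk3) passed for Ox-LDL against Ac-LDL in knockout cells. The cause of these changes was not tested. The fixed block, which cannot be fitted for the comparisons between genotypes, changed no other count between media or between responses.

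Hk3 with Ox-LDL averaged over the genotypes passed under all 12 settings (adjusted p 4.75e-05 to 0.0155) and when each of 12 libraries was left out (0.00765 to 0.0484), so that 1 gene passed throughout. The settings that summed Gapdh with its copies or the Aldoa identifiers left the counts of Hk3 as they were. Scaling by library size alone shifted the fold changes of the 10 genes by -0.02 to 0.06, with 9 of 140 signs changed, all of values near 0. Taldo1 with Ox-LDL did not pass without the filter (adjusted p = 0.0545) or with only the libraries compared (0.0590).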

Other observations

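The excess of wild type mouse 1 was also seen in some genes of uptake and glycolysis outside the 10 genes. Of the 21 other genes of uptake and glycolysis that passed the filter, 7 were at their highest among the wild type mice in this mouse in all 3 media (33.3%, against 12.1% of all genes tested): Gpi1, Tpi1, Pgam1, Bpgm, Eno1, Eno2 and Slc16a1. Of these, Slc16a1 encodes a transporter and not an enzyme. Eno2 averaged only 1.83 CPM, where 3 counts make 1.67 to 2.85 CPM, and Bpgm 7.87 CPM. Pgam1, phosphoglycerate mutase, was 1.54, 1.37 and 1.72 times the mean of the other wild type mice in the control, Ac-LDL and Ox-LDL media, and Tpi1, triosephosphate isomerase, 1.75, 1.20 and 1.72 times. Slc2a6 and Hk1 were not high in this mouse, at 0.492 and 0.763 times the mean of the others in control medium.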
